A study of Mus musculus with 18 samples.

Results

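Histone deacetylases, lysine demethylases and SET-domain genes were followed in the granule cell layer of the ventral dentate gyrus of wild-type male mice whose mothers or grandmothers carried 1 inactive copy of the serotonin 1A receptor gene. The 36 genes were taken by symbol alone, as the names in the count files that begin with Hdac and a digit (11 genes), with Kdm and a digit from 1 to 8 (14 genes, Kdm5c and Kdm5d left out) or with Setd and a digit or b (11 genes), of 34620 genes listed. These families were chosen with earlier results of these data known. All 36 genes passed the filter on low counts, as did 17421 genes in all. RNA-Seq of polyA RNA was carried out on 2 libraries each of WT, F1 and F2 adult males, aged 8 to 12 weeks. All were of the outbred Swiss Webster strain and wild type at the receptor locus, and were perfused with RNAlater before dissection. F1 males were wild-type sons from crosses of 5HT1A-/+ parents, and their grandmothers are given as 5HT1A-/+ too. F2 males came from F1 females bred with wild-type males, so that their mothers were wild type and their maternal grandparents were 5HT1A-/+. WT males had wild-type mothers and grandmothers and came from a lineage of their own, bred alongside. The mutation was made in 129SvEv and backcrossed to Swiss Webster. How many animals went into a library is not stated in the sources used here, so the p-values below measure the spread between these libraries, which may be technical in part.

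The 3 gene families write and erase marks on chromatin. Histone deacetylases (HDACs) remove acetyl groups from lysines of histones and other proteins. Class I enzymes are nuclear and work inside corepressor complexes, class IIa enzymes shuttle between nucleus and cytoplasm and bind MEF2 factors, class IIb enzymes are largely cytoplasmic, and Hdac11 is the only class IV enzyme. Lysine demethylases of the Kdm1 type are flavin-dependent amine oxidases, while the others use a Jumonji C (JmjC) domain with iron and 2-oxoglutarate. SET domains transfer methyl groups to lysines, and in some of these proteins to residues outside histones. In neurons, HDAC inhibitors and loss of several of these genes alter learning and activity-dependent transcription.

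Between 26358165 and 33727936 reads per library fell on genes. Levels are given as CPM, the reads of a gene scaled to the same total in each library, after TMM scaling, a correction for differences in library composition. A gene was called when edgeR's exact test gave it a p under 0.01 after Benjamini-Hochberg adjustment over all genes tested. The share of uniquely aligned reads counted as no feature was 17.7% and 20.7% in WT, 13.8% and 12.2% in F1, and 13.9% and 17.4% in F2. Such reads need not lie outside genes, since the counting mode used leaves out a read that is only partly inside a feature. Summed CPM of 7 granule neuron markers was 1230 and 1243 in WT, 1019 and 1234 in F1, and 1472 and 1347 in F2. Markers of other cells were also present, with no marker gene at 0 in every library. The sum of 14 oligodendrocyte markers was 1208 and 2168 in WT, 3234 and 2443 in F1, and 1702 and 3164 in F2. The sum of 8 astrocyte markers was 2440 and 2664 in WT, 2979 and 3609 in F1, and 4050 and 3388 in F2. Of the 8 astrocyte markers 1 was called higher in F1 and 5 in F2, of 8 microglia markers 0 and 5, of 4 oligodendrocyte precursor markers 2 and 1, and of 7 interneuron markers 1 and 2. The precursor markers summed to 50.7 and 57.7 CPM in WT, 81.2 and 89.9 in F1, and 79.6 and 83.4 in F2. Of the 7 granule neuron markers 1 was called lower in each. The part of these shifts in the results below was not tested. In such bulk libraries, fewer cells of a type and less RNA per cell cannot be told apart.

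Among them, 6 fell in both F1 and F2. These were Hdac7, Hdac10 and Hdac6 among the deacetylases, and Setd1a, Setdb1 and Setd6 among the SET-domain genes, with mean CPM between 42.1% and 63.6% of WT. Kdm6b and Setd4 fell in F1, where Hdac11 rose, and these 3 missed the threshold in F2. Against WT, 9 of 36 genes were called in F1 (25.0%) and 6 in F2 (16.7%). The background was 12.3% of all genes tested in F1 and 12% in F2. Of the 9 calls in F1, 8 were lower (22.2% of the genes, against 8.54% of all genes) and 1 was higher (2.78% against 3.77%). In F2 all 6 calls were lower (16.7%, against 8.1% of all genes) and 0 were higher, where 3.87% of all genes were. The 6 genes that were lower in both groups made up 16.7% of the 36, and 6.07% of all genes tested were lower in both. Because the same 2 WT libraries served both comparisons, the F1 and F2 values are given side by side and not as repeats of each other.

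**Figure D1:**
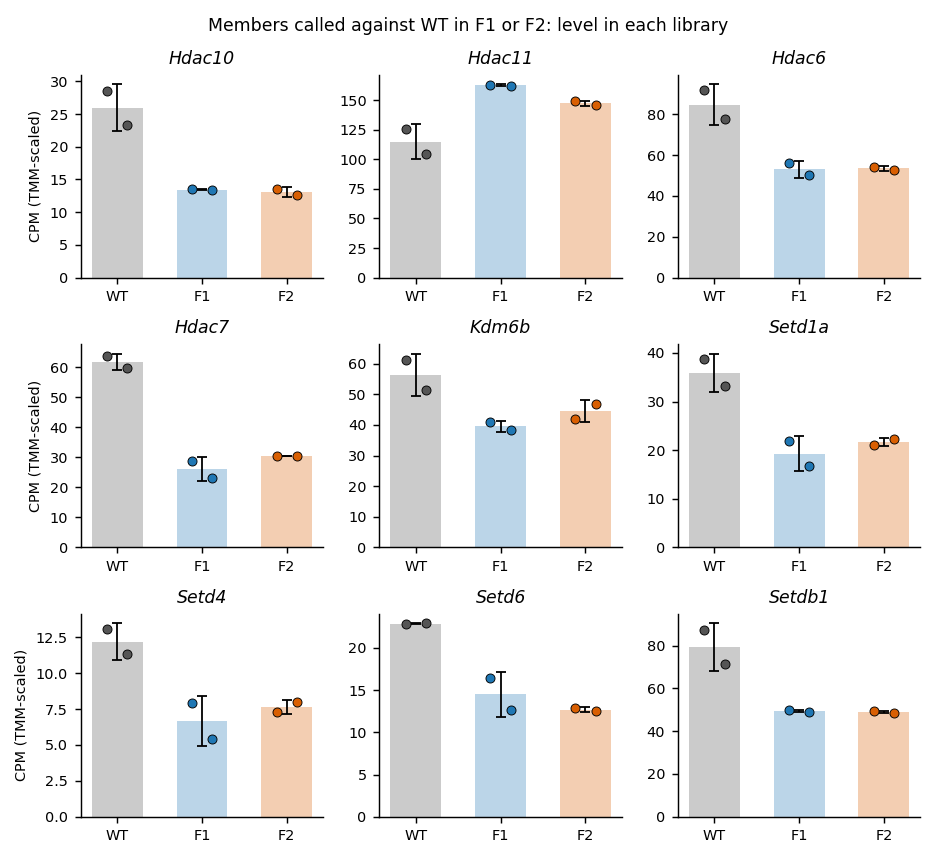
CPM of the 9 called genes in each library of WT, F1 and F2, where points are single libraries, bars are group means and error bars are the SD of 2 libraries. For Hdac7, Hdac10, Hdac6, Kdm6b, Setd1a, Setd4, Setd6 and Setdb1 all 4 F1 and F2 points lie below both WT points, and for Hdac11 all 4 lie above.

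The median log2 fold change of the 36 genes was -0.10 in F1 and -0.09 in F2, beside 0.01 and 0.00 over all genes tested. All 4 F1 and F2 libraries lay below both WT libraries for 12 of the 36 genes (33.3%, against 23.7% of all genes tested). The 12 were the 8 lower genes of the F1 comparison together with Hdac2, Hdac3, Kdm3a and Kdm3b. All 4 libraries lay above both WT libraries for 3 genes (8.33%, against 21.0% of all genes), which were Hdac11, Setd3 and Setd7. For the other 21 genes the groups overlapped.

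**Figure D2:**
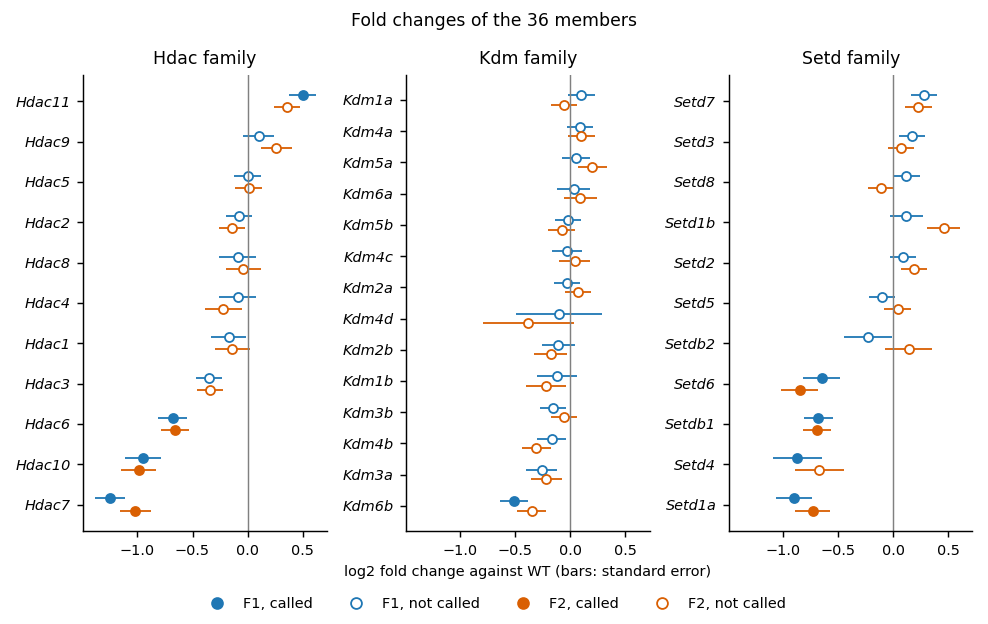
Log2 fold change of each of the 36 genes in F1 and in F2 against WT, by family, with the standard error as a bar and filled points for genes called at an adjusted p under 0.01. Filled points lie at -0.51 or below, except Hdac11 in F1 at 0.50, and the Kdm genes other than Kdm6b and Kdm4d lie within 0.31 of 0.

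Both class IIb deacetylases fell in both groups. Hdac6 (chrX:7507246-7525015 in mm9), which deacetylates tubulin and other cytoplasmic proteins, was at 91.7 and 77.6 CPM in WT, 56.0 and 50.1 in F1, and 54.3 and 52.6 in F2. The 4 F1 and F2 libraries sat close together, under both WT libraries. Its log2 fold change was -0.68 ± 0.13 (SE, n = 2 libraries a group) in F1 and -0.66 ± 0.13 in F2, with adjusted p of 4.4e-06 and 7.9e-06 by edgeR's exact test. Hdac10 (chr15:88953733-88959130), which is known as a polyamine deacetylase, was at 28.5 and 23.4 CPM in WT, 13.5 and 13.4 in F1, and 13.6 and 12.6 in F2. Its level was thus at 51.8% of the WT mean in F1 and 50.4% in F2. The log2 fold changes were -0.95 ± 0.16 and -0.99 ± 0.16, with adjusted p of 3.4e-07 and 1.3e-07. The class as a whole, as summed CPM, went from 120.2 and 101.1 in WT to 69.4 and 63.5 in F1, and to 67.9 and 65.2 in F2.

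Of the 4 class IIa genes, Hdac7 fell. Hdac7 (chr15:97623095-97674933), a MEF2-binding repressor best known from thymocytes and the endothelium, was at 63.7 and 59.9 CPM in WT, 28.8 and 23.2 in F1, and 30.5 and 30.4 in F2. This was the largest change in either direction among the 36 genes, and the gap between WT and the other libraries was wider than any gap within a group. Its log2 fold change was -1.25 ± 0.14 in F1 (adjusted p = 9.72e-17) and -1.02 ± 0.14 in F2 (adjusted p = 2.27e-11). The 6 endothelial markers summed to 77.7 and 85.5 CPM in WT, 87.2 and 109.4 in F1, and 113.3 and 109.6 in F2. Of these markers 0 were called in F1 and 1 was called higher in F2, and their part in the Hdac7 result was not tested. The other class IIa genes were not called. Hdac4, which is cytoplasmic in resting neurons, had log2 fold changes of -0.09 in F1 and -0.22 in F2. Hdac5, which leaves the nucleus upon calcium signalling, had values of 0.00 and 0.01, and Hdac9 had 0.10 and 0.26. The ratio of Hdac7 to Hdac5 counts was 0.446 and 0.442 in WT, 0.206 and 0.169 in F1, and 0.232 and 0.204 in F2.

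No class I gene was called in edgeR's exact test in either group. At an unadjusted p under 0.05, 1 of the 4 passed in F1 and 1 in F2, and 0 passed at the adjusted threshold with edgeR's quasi-likelihood test or DESeq2. The gene with the unadjusted p was Hdac3, the catalytic subunit of the NCoR and SMRT complexes. It was at 108.2 and 95.9 CPM in WT, 84.4 and 75.5 in F1, and 81.3 and 79.5 in F2. Its log2 fold changes were -0.35 ± 0.12 (adjusted p = 0.0252) and -0.34 ± 0.12 (adjusted p = 0.03). Hdac1, a subunit of the Sin3, NuRD and CoREST complexes, had log2 fold changes of -0.17 in F1 and -0.14 in F2. Hdac2, its close paralog, had -0.08 and -0.14, and the X-linked Hdac8, which deacetylates cohesin, had -0.09 and -0.04.

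Hdac11, which removes long acyl chains from lysines, moved the other way. It was at 125.2 and 104.6 CPM in WT, 163.1 and 161.9 in F1, and 148.9 and 145.7 in F2. Every F1 and F2 library was above both WT libraries. The log2 fold change was 0.50 ± 0.12 in F1 (adjusted p = 7.3e-04) and 0.36 ± 0.12 in F2 (adjusted p = 0.0226), of which the first was called. The call in F1 was lost without WT library 2 (log2 fold change 0.39), the WT library with the lower level. Of the 14 oligodendrocyte markers, 4 were called higher in F1 and 2 in F2. Their sum was 1208 and 2168 CPM in WT, 3234 and 2443 in F1, and 1702 and 3164 in F2. Their part in the Hdac11 result was not tested. The ratio of Hdac11 to Hdac10 counts went from 4.39 and 4.47 in WT to 12.1 and 12.1 in F1, and to 10.9 and 11.6 in F2.

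Per kilobase of exon, Hdac2 and Hdac11 were the highest of the 36 genes in WT, at 31.0 ± 0.06 and 29.8 ± 3.77 CPM per kb (mean ± SD, n = 2), and did not differ beyond that spread. Hdac2 was at 138.7 and 139.0 CPM in WT, 133.6 and 128.3 in F1, and 119.4 and 133.1 in F2, and was not called. Hdac3 followed at 25.3 ± 2.16 CPM per kb. The class IIb gene Hdac6 stood at 14.6 ± 1.70 and Hdac7 at 11.2 ± 0.49, while Hdac10 was at 7.68 ± 1.06 and the lowest deacetylase, Hdac8, at 3.16 ± 0.20. In F1 the level of Hdac7 per kb was 4.70 ± 0.72, close to that of Hdac9 at 4.34 ± 0.27. Hdac4 had no single gene in the annotation used, so no length or position is given for it.

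**Figure D3:**
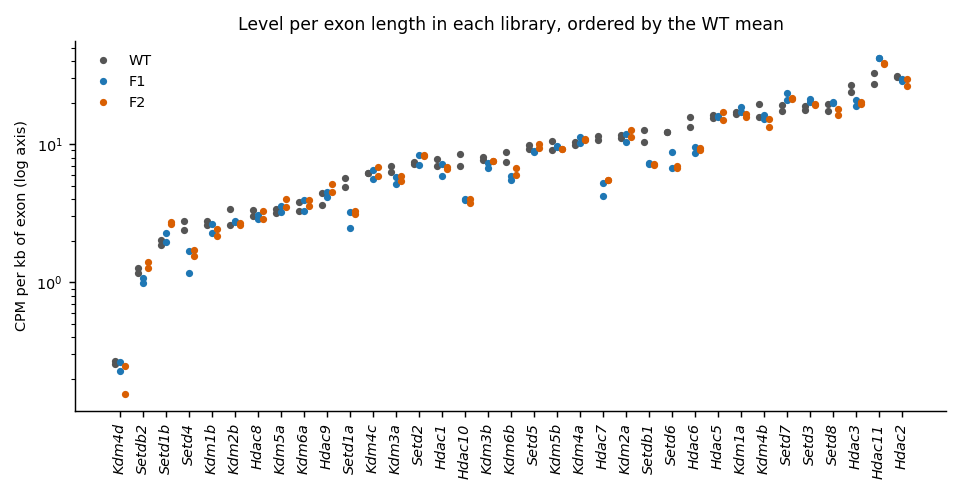
CPM per kilobase of exon (log axis) of 35 of the genes in each library, ordered by the WT mean, with 1 point per library. The order runs from Kdm4d at 0.264 to Hdac2 at 31.0 in WT, and the F1 and F2 points of the lower genes, such as Hdac7, Hdac10 and Setdb1, drop below those of their neighbours in the order.

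Among SET-domain genes, those that fell act on different residues. Setd1a (chr7:134920184-134943636 in mm9), an H3K4 methyltransferase of the COMPASS type, was at 38.7 and 33.2 CPM in WT, 21.8 and 16.7 in F1, and 21.1 and 22.3 in F2. Its log2 fold change was -0.90 ± 0.16 in F1 (adjusted p = 1.39e-06) and -0.73 ± 0.16 in F2 (adjusted p = 1.73e-04). The call in F2 was lost without WT library 1, F2 library 1 or F2 library 2, with fold changes from -0.76 to -0.61. In the annotation of the mm9 build, 51.85% of its exon bases (3523 bases) are shared with Hsd3b7, a bile acid synthesis gene on the same strand, and reads within exons of both genes would be left uncounted as ambiguous by the counting mode the authors used. Hsd3b7 was itself at 11.7 and 10.1 CPM in WT, 5.94 and 6.54 in F1, and 6.95 and 7.09 in F2. It was called in F1 (log2 fold change -0.80, adjusted p = 6.13e-04) and just missed in F2 (-0.63, adjusted p = 0.0102).

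Setd1b, the paralog of Setd1a, was not called lower. It was at 22.2 and 20.3 CPM in WT, 21.3 and 25.0 in F1, and 29.4 and 28.9 in F2. Both F2 libraries were above WT while the F1 libraries overlapped it, with log2 fold changes of 0.12 ± 0.15 (adjusted p = 0.617) and 0.46 ± 0.15 (adjusted p = 0.0146), neither of them called. The ratio of Setd1b to Setd1a counts was 0.573 and 0.611 in WT, 0.977 and 1.49 in F1, and 1.39 and 1.3 in F2.

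Setdb1 (chr3:95127447-95161124), the H3K9 methyltransferase that silences retrotransposons with Trim28, was at 87.1 and 71.2 CPM in WT, 49.7 and 49.0 in F1, and 49.3 and 48.6 in F2. The 4 F1 and F2 libraries differed among themselves by far less than the 2 WT libraries did. The log2 fold changes were -0.68 ± 0.13 (adjusted p = 4.55e-06) and -0.69 ± 0.13 (adjusted p = 3.26e-06). Setdb2, its less abundant paralog, was not called, with log2 fold changes of -0.23 and 0.14. Trim28, its corepressor, had -0.07 and -0.17, and Atf7ip, which stabilises Setdb1, had 0.00 and 0.20, and neither was called.

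Setd6 (chr8:98239815-98242910), which methylates the NF-kappaB subunit RelA, was at 22.8 and 22.9 CPM in WT, 16.4 and 12.6 in F1, and 12.9 and 12.5 in F2. F1 library 1 was the nearest to WT. The log2 fold change was -0.65 ± 0.17 in F1 (adjusted p = 0.00157) and -0.85 ± 0.17 in F2 (adjusted p = 2.52e-05). The F1 call was lost without WT library 1 (-0.66), WT library 2 (-0.64) or F1 library 2 (-0.47), and with edgeR's quasi-likelihood test. Setd4 (chr16:93583702-93604308) was at 13.1 and 11.3 CPM in WT, 7.89 and 5.44 in F1, and 7.29 and 8.01 in F2. All 4 were again below WT, with log2 fold changes of -0.87 ± 0.22 (adjusted p = 0.00102) and -0.67 ± 0.22 (adjusted p = 0.0158), of which the first was called. This call was lost without WT library 1 (-0.76) or F1 library 2 (-0.62), and with edgeR's quasi-likelihood test.

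The remaining SET-domain genes were not called. Setd2, the enzyme that adds the third methyl group to H3K36, had log2 fold changes of 0.09 in F1 and 0.19 in F2. Setd3, which methylates a histidine of actin, had 0.17 and 0.07, and Setd5, a homolog with disputed enzyme activity, had -0.10 and 0.04. Setd8, which places the first methyl group on H4K20, had 0.12 and -0.11. Setd7, an H3K4 monomethyltransferase with many other protein substrates, had 0.28 and 0.23, and its libraries were at 149.1 and 136.6 CPM in WT, 163.0 and 183.3 in F1, and 167.2 and 166.9 in F2. Per kilobase of exon, Setd3, Setd8 and Setd7 were the highest of the family in WT, at 18.4 ± 0.85, 18.4 ± 1.49 and 18.3 ± 1.13 CPM per kb, and could not be ordered. Setd3 was at 114.7 and 107.4 CPM in WT, 128.5 and 121.1 in F1, and 116.5 and 116.9 in F2. Setd8 was at 78.5 and 70.0 in WT, 80.0 and 81.7 in F1, and 65.8 and 72.3 in F2.

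Among the 14 demethylases, Kdm6b was the only gene called, in F1 (7.14% lower, against 8.54% of all genes tested, and 0 in F2, against 8.1%). Kdm6b (chr11:69212010-69227177), which removes H3K27 methylation and is induced by many stimuli, was at 61.3 and 51.6 CPM in WT, 40.9 and 38.3 in F1, and 41.9 and 47.0 in F2. The F2 libraries lay between those of F1 and WT. The log2 fold change was -0.51 ± 0.13 in F1 (adjusted p = 0.00173) and -0.35 ± 0.13 in F2 (adjusted p = 0.0486). The F1 call was lost without WT library 1 (-0.38) or F1 library 2 (-0.46), and with edgeR's quasi-likelihood test. A noncoding gene on the opposite strand, 1700064E03Rik, shares 4.11% of the exon bases of Kdm6b, and whether counting used strand is not given in the sources used here. Its X-linked paralog Kdm6a had log2 fold changes of 0.03 and 0.09.

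In F2 no Kdm gene was called in edgeR's exact test. At an unadjusted p under 0.05, 2 of the 14 passed in F2, and 0 passed at the adjusted threshold with edgeR's quasi-likelihood test or DESeq2. Kdm1a, the flavin-dependent H3K4 demethylase of the CoREST complex, had log2 fold changes of 0.10 in F1 and -0.06 in F2, and Kdm1b had -0.12 and -0.22. The H3K36 demethylases Kdm2a and Kdm2b had -0.03 and 0.07, and -0.11 and -0.18. The H3K9 demethylases Kdm3a and Kdm3b had -0.26 and -0.22, and -0.16 and -0.06. Of the Kdm4 genes that act on both H3K9 and H3K36, Kdm4a had 0.09 and 0.10, Kdm4b had -0.17 and -0.31, and Kdm4c had -0.03 and 0.04. Kdm4d had -0.10 and -0.38, with standard errors of 0.39 and 0.41, at 0.445 to 0.774 CPM over the 6 libraries. The H3K4 demethylases Kdm5a and Kdm5b had 0.05 and 0.20, and -0.02 and -0.08. Per kilobase of exon, Kdm4b and Kdm1a were the highest of the family in WT, at 17.6 ± 2.53 and 16.8 ± 0.29 CPM per kb, and did not differ beyond that spread. Kdm4b was at 95 and 77.5 CPM in WT, 73.8 and 80.0 in F1, and 65.2 and 73.8 in F2.

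F2 against F1 gave no call among the 36 genes by edgeR's exact test, edgeR's quasi-likelihood test or DESeq2, where 0.74% of all genes tested were called by the exact test. Among the 36, Setd1b alone had an unadjusted p under 0.05 (log2 fold change 0.33, adjusted p = 0.421). For Hdac11, Kdm6b and Setd4, which were called in F1 and not in F2, the F2 against F1 difference was -0.14, 0.17 and 0.20, with adjusted p of 0.904, 0.882 and 0.959. A difference between F1 and F2 in these 3 genes was therefore not shown.

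The promoters of genes that fell in both groups are shown as a description, and shared regulation of these genes was not tested. The windows cover 250 bases before to 50 bases after the start of transcription, read from RefSeq on GRCm38.p6, a later build than the mm9 of the counts. RefSeq windows were matched for 27 of the 36 genes, 1 of them by its other name, and Hdac10 had none. Capitals mark matches on either strand to 7 short motifs. The motif GGGCGG is known as the GC box, the motif CCAAT as the site of NF-Y, and TATAAA as the TATA box. The motif CCGGAAG is bound by ETS factors, while GCATGCGC is the core of the site of NRF1. The motif TGACGTCA is the cAMP response element, and CACGTG is known as an E box. Hdac6 lies at chrX:7947840-7948139, minus strand, and its window held GGGCGG 5 times and CCAAT 2 times. Setdb1 lies at chr3:95357153-95357452, minus strand, with CCGGAAG 2 times and GGGCGG and CCAAT 1 time each. Setd6 lies at chr8:95715663-95715962, plus strand, where 1 GGGCGG and 1 CCGGAAG overlap on opposite strands. None of the 7 motifs was in the window of Setd1a, at chr7:127777139-127777438, plus strand, or in the most upstream of the 4 windows of Hdac7, at chr15:97844453-97844752, minus strand.
Hdac6: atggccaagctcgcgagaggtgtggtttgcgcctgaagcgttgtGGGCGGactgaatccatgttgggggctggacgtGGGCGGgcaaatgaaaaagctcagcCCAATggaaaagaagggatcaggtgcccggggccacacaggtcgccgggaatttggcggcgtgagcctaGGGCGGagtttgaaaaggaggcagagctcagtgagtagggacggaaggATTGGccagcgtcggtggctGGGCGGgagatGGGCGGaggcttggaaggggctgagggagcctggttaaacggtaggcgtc
Setdb1: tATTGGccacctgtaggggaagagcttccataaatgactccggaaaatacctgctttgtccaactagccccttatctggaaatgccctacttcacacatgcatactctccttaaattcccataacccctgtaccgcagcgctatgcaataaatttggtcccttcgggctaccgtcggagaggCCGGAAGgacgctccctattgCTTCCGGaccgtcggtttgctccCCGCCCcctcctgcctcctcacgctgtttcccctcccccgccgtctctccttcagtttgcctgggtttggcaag
Setd6: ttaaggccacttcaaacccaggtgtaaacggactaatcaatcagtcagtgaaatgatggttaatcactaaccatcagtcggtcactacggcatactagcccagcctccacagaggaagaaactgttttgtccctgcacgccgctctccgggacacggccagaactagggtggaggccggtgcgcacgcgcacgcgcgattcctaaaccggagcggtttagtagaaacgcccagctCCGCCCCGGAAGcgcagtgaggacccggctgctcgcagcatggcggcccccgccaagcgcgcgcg
Setd1a: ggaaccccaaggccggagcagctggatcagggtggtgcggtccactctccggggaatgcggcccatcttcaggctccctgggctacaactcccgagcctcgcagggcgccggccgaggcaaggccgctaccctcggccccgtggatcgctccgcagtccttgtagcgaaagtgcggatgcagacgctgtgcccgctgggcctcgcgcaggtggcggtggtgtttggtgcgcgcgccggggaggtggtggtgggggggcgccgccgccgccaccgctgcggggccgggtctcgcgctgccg
Hdac7: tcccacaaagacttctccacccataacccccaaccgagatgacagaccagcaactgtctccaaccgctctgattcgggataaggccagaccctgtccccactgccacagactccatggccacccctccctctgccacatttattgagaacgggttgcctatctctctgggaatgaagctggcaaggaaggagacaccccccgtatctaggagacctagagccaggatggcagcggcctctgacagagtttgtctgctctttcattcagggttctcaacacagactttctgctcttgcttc

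GGGCGG was in 4 of the 8 windows of these 5 genes. It was in 60.0% of the 40 windows of the 27 genes matched and in 35.7% of all windows of the table. Of the 8 windows 4 are of Hdac7, and GGGCGG was also in an Hdac7 window that is not printed. CCGGAAG was in 2 of the 8 (25.0%), in 12.5% of the 40 and in 8.86% of all. CCAAT was in 25.0%, 47.5% and 37.4%, TATAAA in 0.0%, 5.0% and 13.6%, and CACGTG in 0.0%, 7.5% and 7.15%. GCATGCGC and TGACGTCA were in none of the 40 windows and in 2.71% and 1.79% of all. The 5 genes that fell thus had no motif in common among those searched. The median GC content was 61.3% in the 8 windows and 62.3% in the 40, beside 52.7% in all windows.

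The genes that were lower in F1 or F2 tended to be short. Their span from first to last exon base in the mm9 annotation had a median of 19.2 kb (3.1 to 51.8 kb, n = 8), against 52.2 kb (18.0 to 481.3 kb, n = 27) for the others with a position. Both genes under 10 kb, Setd6 and Hdac10, were lower in F1 and in F2. Hdac11, which was higher in F1, spans 18.0 kb. Between 10 and 30 kb, 4 of 10 genes were lower in F1 and 2 in F2, between 30 and 100 kb 2 of 18 were lower in each, and over 100 kb 0 of 5 were lower. Among all protein-coding genes tested, 8.37%, 8.82%, 7.15% and 5.23% were lower in F1 in these 4 classes of span. In F2 these shares were 8.19%, 9.33%, 6.91% and 3.84%. Across the 35 genes with a position, span and log2 fold change had a Spearman's rho of 0.40 in F1 and 0.49 in F2. Across 15042 protein-coding genes it was 0.11 and 0.16. Span was not alone in this. In the 35 genes exon length gave 0.35 and 0.48, exon GC -0.29 and -0.43, and exon number -0.18 and -0.04. In the 15042 genes exon length gave 0.02 and 0.07, exon GC -0.03 and -0.06, and exon number -0.13 in each. These correlations are across genes of the same libraries, which are not independent replicates and also share base composition, since span and exon GC had a rho of -0.55 in the 35 genes. The exons of the lower genes had a median GC of 55.4%, against 47.4% for the others.

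**Figure D4:**
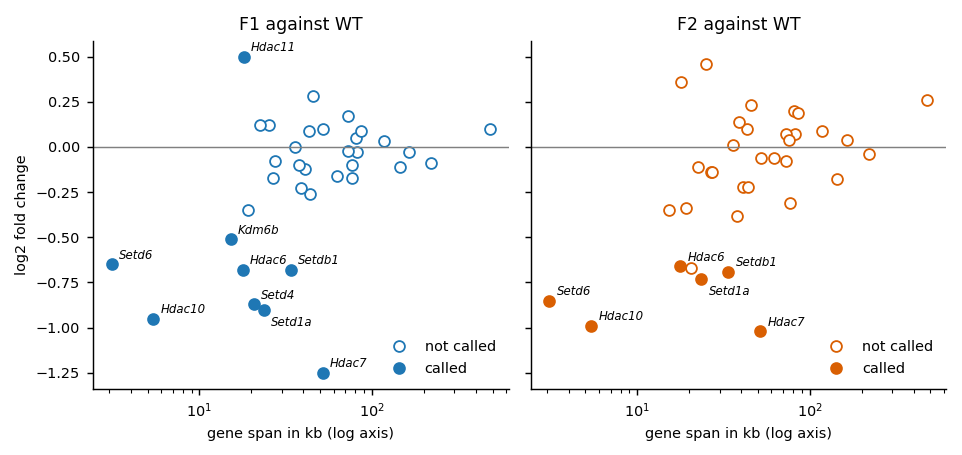
Log2 fold change against WT in F1 and in F2, plotted against gene span in kb (log axis) for the 35 genes with a position, with filled points for called genes. The lower genes lie at 3.1 to 51.8 kb, and genes over 100 kb lie within 0.26 of 0.

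Of 24 other methyltransferases with a SET or Dot1 domain that were tested, 4 were lower in F1 (16.7%, against 8.54% of all genes) and 3 in F2 (12.5%, against 8.1%). None was called higher, and the median log2 fold change was -0.08 and 0.00. Suv420h2, which adds further methyl groups to H4K20, was at 41.5 and 32.8 CPM in WT, 16.3 and 12.7 in F1, and 13.9 and 16.4 in F2. Its fold changes were -1.36 (adjusted p = 7.15e-12) and -1.29 (adjusted p = 1.14e-10), larger than that of Hdac7 in both groups. Dot1l, the H3K79 methyltransferase, was at 136.9 and 107.5 CPM in WT, 59.7 and 56.2 in F1, and 54.9 and 64.7 in F2. The log2 fold changes were -1.08 (adjusted p = 3.97e-12) and -1.03 (adjusted p = 4.51e-11). Mll2, an H3K4 methyltransferase, was also called in both groups, with log2 fold changes of -0.80 (adjusted p = 5.83e-08) and -0.54 (adjusted p = 6.02e-04). The F2 call of Mll2 was lost without WT library 1 (-0.48) or F2 library 1 (-0.44), and with edgeR's quasi-likelihood test. Mll1 was the fourth in F1 (-0.49, adjusted p = 3.49e-04) and was not called in F2 (-0.28), and its F1 call was lost without WT library 1 (-0.41) or F1 library 2 (-0.49). The paralog Suv420h1, with -0.08 and 0.06, and the Polycomb methyltransferase Ezh1, with 0.06 and -0.04, were not called.

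Of 16 COMPASS subunits and H3K9 partners 1 was lower in F1 and in F2 (6.25%, under the 8.54% and 8.1% of all genes). This was Cxxc1, the CpG-binding subunit of the Setd1a and Setd1b complexes. It was at 80.6 and 64.0 CPM in WT, 48.7 and 47.7 in F1, and 49.1 and 45.3 in F2. The log2 fold changes were -0.59 (adjusted p = 2.67e-04) and -0.62 (adjusted p = 1.29e-04). The F1 call was lost without WT library 1 (-0.41) or F1 library 2 (-0.56), and the F2 call without WT library 1 (-0.43) or F2 library 2 (-0.55). The other 15 were not called, and among them Wdr82, also particular to these complexes, had 0.17 and 0.24. Of 30 genes of HDAC corepressor complexes, 2 were lower in F1 (6.67%), and 3 were lower (10%) and 1 higher (3.33%) in F2, which is near the shares of all genes tested (8.54% lower in F1, 8.1% lower and 3.87% higher in F2). With edgeR's quasi-likelihood test, 2 of the 30 were called in F2. Gps2, a subunit of the NCoR and SMRT complexes, was the one lower in both, with log2 fold changes of -0.71 (adjusted p = 8.54e-05) and -0.64 (adjusted p = 5.94e-04). Its libraries were at 43.8 and 36.3 CPM in WT, 26.8 and 22.2 in F1, and 25.0 and 26.5 in F2. Its F1 call was lost without WT library 1 (-0.57) or F1 library 2 (-0.57), and its F2 call without WT library 1 (-0.49) or either F2 library (-0.59 and -0.67).

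No histone acetyltransferase among 13 and no other JmjC gene among 12 was called in F1 or F2 by edgeR's exact test, by its quasi-likelihood test or by DESeq2. By the exact test, 12.3% of all genes tested were called in F1 and 12% in F2. Lists this small cannot set an absence of calls apart from those shares. At an unadjusted p under 0.05, 3 acetyltransferases passed in F1 and 5 in F2, and 2 JmjC genes passed in each. The median log2 fold change was -0.01 and 0.01 for the acetyltransferases, and -0.06 and -0.01 for the JmjC genes.

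**Figure D5:**
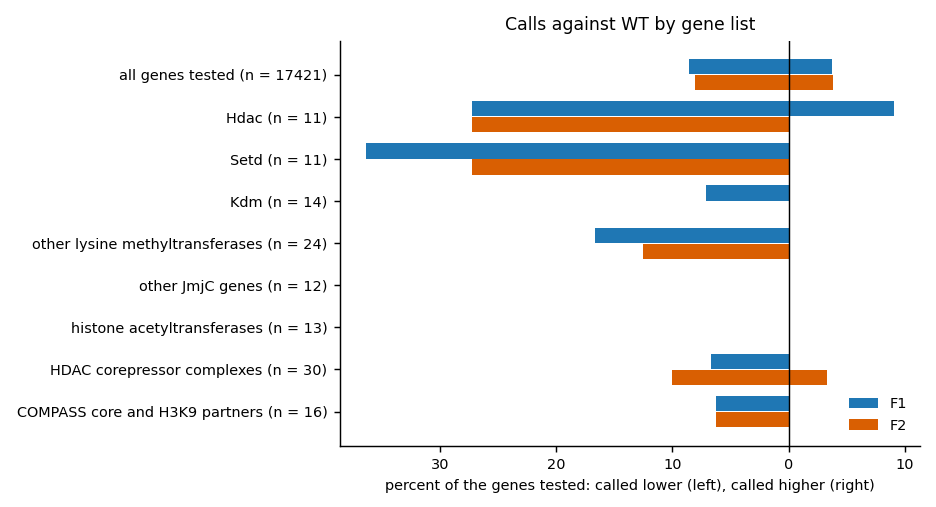
Percent of the genes tested in each list that were called lower (left of 0) or higher (right of 0) in F1 and in F2 against WT, with the number tested in each list beside its name. Lower calls are most frequent in the Hdac and Setd families, at 27.3% to 36.4%, against 8.54% and 8.1% of all genes tested. Each of these families holds 11 genes, so such a share rests on 3 or 4 genes. In F1 only 2 of the 4 Setd calls were kept under quasi-likelihood testing, while the Setd calls in F2 and the lower Hdac calls all stayed. Whether these shares exceed those of all genes was not tested. Lower calls are absent from the acetyltransferases and the other JmjC genes, lists too small to set this apart from the shares of all genes.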

How the data were processed

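PolyA RNA-Seq libraries (TruSeq) of microdissected ventral dentate granule cell layer were compared between WT, F1 and F2 (2 libraries each); the bisulfite samples of the series were not analysed here. The authors aligned single-end reads to mm9 with TopHat (TopHat2 2.0.2 and Bowtie 1.0.0 in the submitters' processing notes) and counted reads per gene with HTSeq in intersection-strict mode. The deposited files hold raw counts per gene, with no normalization. The annotation used for counting is not given in the sources used here. Lines that name no gene (no feature, ambiguous, not unique) made up 35.3% to 46.6% of all counted lines and were left out of library sizes and tests.

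Genes were filtered with filterByExpr and scaled by TMM in edgeR 4.0.16 (R 4.3.3). Tagwise dispersions were estimated over the 3 groups (common dispersion 0.0113, a biological coefficient of variation of 10.6%), and each pair of groups was compared with edgeR's exact test, two-sided, with Benjamini-Hochberg adjustment over the 17421 genes tested and a threshold of 0.01. Standard errors come from the fitted dispersions. The 2 libraries of a group differed by more than sampling noise in each group. Gene positions, exon lengths and GC content are from GENCODE M1 on NCBIM37 (mm9). Fits were tested on simulated counts first. The alternatives were edgeR's quasi-likelihood test, a replicate block, DESeq2 1.42.0, other scalings and filters, a threshold of 0.05, and leaving out each library.

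The genes and the lists beside them were chosen with earlier results of these data known. The text names each of the 36 genes with its fold changes, gives library values for genes called at the threshold and for the highest of each family per exon length, and names genes of the side lists called in F1 and F2 in the same direction, at most 4 per list. Library values of Hdac3, Setd1b, Setd3, Setd7 and Hsd3b7, and fold changes of Trim28, Atf7ip, Wdr82, Mll1, Suv420h1 and Ezh1, were added after their values were seen.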

Additional observations from a re-analysis of the deposited data

How the results depend on the processing

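Hdac6, Hdac7, Hdac10 and Setdb1 were called lower in F1 and in F2 under all 15 alternatives at the threshold of 0.01, leaving out each library included. So were Setd1a in F1 and Setd6 in F2. The 15 include the crossed block given below, which was chosen after seeing the data. By edgeR's quasi-likelihood test, 1030 genes were called in F1, 997 in F2 and 2 in F2 against F1, and the F1 calls of Kdm6b, Setd4 and Setd6 were lost. The replicate differences of the groups correlated at -0.0269 (WT and F1), -0.083 (WT and F2) and -0.182 (F1 and F2). The replicate numbers thus shared no difference in the same direction, but this cannot show whether libraries were processed in pairs. With the replicate block in the quasi-likelihood test, 848, 758 and 9 genes were called, and 5 of the 36 in F1, where the Hdac11 call was lost too. That test also lost Gps2 and Mll2 in F2 and Mll1 in F1, and left 0 of the 30 corepressor genes called in F2. With the replicate block in a likelihood-ratio test, Kdm6b in F1 (adjusted p = 0.0151) and Mll2 in F2 (adjusted p = 0.0111) were lost. With F2 numbers crossed in a replicate block of that test, chosen after seeing the data, 2931 genes were called in F1, 3037 in F2 and 300 in F2 against F1. At an adjusted p under 0.05, 3623 genes were called in F1, 3602 in F2 and 230 in F2 against F1, and of the 36 genes 11 in F2 and 10 in both. Leaving out 1 library at a time gave 988 to 2043 genes in F1, 703 to 2585 in F2 and 52 to 223 in F2 against F1. Of the 36, it gave 6 to 9 in F1, 5 to 8 in F2, 4 to 7 in both and 0 in F2 against F1. The lowest counts came without WT library 1 in F1 (988) and without F2 library 1 in F2 (703) and in F2 against F1 (52), and the cause was not tested. Setd1b rose past the threshold in F2 without either F1 library or with the crossed block (0.46 to 0.47), Setd4 fell past it in F2 under 4 alternatives (-0.67 to -0.66), and Hdac3 in F1 with a mean of at least 50 counts (-0.38).

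Fold changes that turned sign were all of genes not called. Hdac5 in F1 was 0.013 by DESeq2 and 0.019 without a filter, and in F2 -0.004 with library totals and -0.015 with a mean of at least 50 counts, where Kdm6a in F1 was -0.008. Leaving out 1 library at a time gave, in F1, -0.308 to 0.181 for Hdac4, -0.033 to 0.037 for Hdac5, -0.032 to 0.266 for Hdac9, -0.122 to 0.077 for Kdm2a, -0.274 to 0.101 for Kdm2b, -0.121 to 0.082 for Kdm4c, -0.205 to 0.019 for Kdm4d, -0.007 to 0.132 for Kdm5a, -0.108 to 0.079 for Kdm5b, -0.107 to 0.166 for Kdm6a and -0.023 to 0.22 for Setd2. In F2 it gave -0.440 to 0.053 for Hdac4, -0.076 to 0.106 for Hdac5, -0.132 to 0.052 for Hdac8, -0.013 to 0.153 for Kdm2a, -0.344 to 0.035 for Kdm2b, -0.066 to 0.142 for Kdm4c, -0.165 to 0.027 for Kdm5b, -0.008 to 0.210 for Kdm6a and -0.005 to 0.090 for Setd5. A left-out library leaves a group with 1 library, which is then assumed to vary like the other groups. Dispersion estimated from 2 libraries a group limits small changes: the standard error was 0.12 for the best counted of the 36 genes and up to 0.41 for Kdm4d.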
